A study of Mus musculus with 617 samples.

Results

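The 10 genes described here are transcriptional targets and feedback inhibitors of the kinase ERK: the ETS transcription factors Etv4 and Etv5, the Sprouty inhibitors Spry2 and Spry4, the MAP kinase phosphatases Dusp4 and Dusp6, and the immediate-early genes Egr1, Fos, Fosl1 and Ier3. They were chosen by name, with earlier results of these data known, so counts of them set beside all genes are description only. Their Ensembl identifiers were looked up by symbol in the 4 deposited tables of FPKM values. FPKM are fragment numbers scaled by transcript length and by sequencing depth, and the way depth was scaled is not given in the sources. All 10 were found among the 43628 genes that each table lists. The study profiled 617 single mouse cells by SMART-seq2, a full-length single-cell RNA-seq method, to follow male and female embryonic stem (ES) cell lines along development. Of the ES cells, 60 of the female line and 51 of the male line were grown in 2i and LIF, and 68 and 52 in serum and LIF. Epi cells, ES-derived cells kept in Activin A and FGF2, numbered 79 female and 63 male, and a further 41 female Epi cells, in a table of their own, came from a culture kept that way for 7 passages. Motor neuron cultures, made through embryoid bodies with retinoic acid and the Smoothened agonist SAG, gave 39 female and 35 male cells, and per the labels they hold interneurons too. From embryos came 23 cells labelled inner cell mass (ICM) of E3.5 and 23 labelled epiblast of E4.5, for which no sex is given, and 20 female and 63 male epiblast cells of E5.5. At E5.5 the strain is C57BL/6J for both parents, whereas every other group crosses CAST/EiJ males with C57BL/6J females.

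Several features limit what these groups can stand for. Each sex is represented by 1 ES line, so line and sex cannot be told apart, and each state was cultured in 1 female and 1 male culture as far as the labels say. The labels do not tie embryo cells to single embryos, so each embryo stage counts here as 1 sample and no test was made on it. The number of reads per cell is unknown. Cells had a median of 8122 to 10839.5 genes at 1 FPKM or more across the 13 groups, and the median FPKM sum was 1.33e+06 and 1.48e+06 in the female and male motor neuron cultures against 511794 to 1.03e+06 elsewhere. All 10 general and naive pluripotency markers had a mean of 1 FPKM or more in the 2i, serum, E3.5 and E4.5 groups. In the E3.5 cells all 7 trophoblast markers and 5 of 9 endoderm markers also reached that mean. Their median cell sums there were 191.98 and 111.84 FPKM, beside 1158.6 FPKM for the 10 naive markers. Some groups went partly against their labels. Female Epi cells kept 10 of 10 general and naive pluripotency markers at a mean of 1 FPKM or more, summing to 1433 FPKM against 343 FPKM and 3 of 10 in male Epi cells. The cells labelled E4.5 epiblast had more trophoblast marker RNA (7 markers, median cell sum 1254 FPKM) than naive marker RNA (10 markers, 776 FPKM). Endoderm marker RNA, taken over 9 markers, was present in the E5.5 cells of both sexes. The female cells had a median cell sum of 2103 FPKM, with 8 of the 9 at a mean of 1 FPKM or more. For the male cells the median cell sum was lower, at 512 FPKM, and 7 of the 9 markers reached that mean.

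Fibroblast growth factors bind receptor tyrosine kinases that activate RAS, RAF, MEK and finally ERK, which enters the nucleus and drives transcription of early response genes. Among the targets are the pathway's own brakes: Sprouty proteins act upstream on RAS activation and dual-specificity phosphatases remove the phosphates from MAP kinases. In mouse ES cells FGF4 acting through ERK primes cells to leave the naive state. The 2i medium blocks MEK and the kinase GSK3 with small molecules, whereas serum medium leaves MEK active and Epi medium adds FGF2.

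The promoters of 4 of these genes are shown because the genes had unlike levels within 2i: Dusp6 and Fos were low there, and Etv5 and Spry2 were high. Of the 10 genes, 5 matched an entry of the RefSeq promoter table (GRCm38.p6), and Etv4, Spry4, Dusp4, Egr1 and Fosl1 did not match. The fifth match, Ier3, is not printed, although it too was low in 2i (3.13 and 2.50 FPKM). Etv5 had a further annotated start, whose window is not printed either. Each line gives the 250 bases before the annotated transcription start, 5′ to 3′ on the gene's strand, with the matches to a motif in capitals. The windows are chr10:99262981-99263230 on the plus strand for Dusp6, chr12:85473640-85473889 on the plus strand for Fos, chr16:22439571-22439820 on the minus strand for Etv5 and chr14:105896820-105897069 on the minus strand for Spry2.
Dusp6: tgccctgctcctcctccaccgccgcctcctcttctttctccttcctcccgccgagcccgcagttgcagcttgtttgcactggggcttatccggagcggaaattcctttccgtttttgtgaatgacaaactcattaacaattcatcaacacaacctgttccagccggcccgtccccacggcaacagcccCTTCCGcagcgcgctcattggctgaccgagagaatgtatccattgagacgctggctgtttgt
Fos: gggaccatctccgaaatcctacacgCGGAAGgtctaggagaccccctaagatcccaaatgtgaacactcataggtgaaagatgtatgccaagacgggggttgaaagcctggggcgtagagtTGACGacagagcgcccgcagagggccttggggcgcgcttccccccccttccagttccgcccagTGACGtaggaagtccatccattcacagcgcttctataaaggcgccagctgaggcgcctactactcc
Etv5: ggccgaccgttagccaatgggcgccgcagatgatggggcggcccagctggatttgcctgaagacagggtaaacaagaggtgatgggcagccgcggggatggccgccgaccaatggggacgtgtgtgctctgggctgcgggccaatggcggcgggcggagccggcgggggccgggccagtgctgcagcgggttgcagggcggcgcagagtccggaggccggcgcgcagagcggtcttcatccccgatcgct
Spry2: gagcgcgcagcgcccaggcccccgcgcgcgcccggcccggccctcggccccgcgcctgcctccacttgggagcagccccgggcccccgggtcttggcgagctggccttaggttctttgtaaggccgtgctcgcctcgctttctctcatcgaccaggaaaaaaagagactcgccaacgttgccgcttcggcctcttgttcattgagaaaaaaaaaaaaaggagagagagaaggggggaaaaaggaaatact
The motifs searched on both strands were the ETS core CGGAAG, the AP-1 site TGANTCA, the cyclic AMP response element half-site TGACG, and the serum response factor motif known as the CArG box. Among 32851 promoter windows of the same length, 13.6% held the ETS core, 6.75% the AP-1 site, 17.8% the half-site and 1.47% the CArG box. Dusp6 had 1 ETS core, on the minus strand at bases -62 to -57 from the start, so that it reads CTTCCG in the printed sequence. Fos had an ETS core at -225 to -220 and half-sites at -129 to -125 and -66 to -62. The windows of Etv5 (at both starts), Spry2 and Ier3 held no match, so a low level in 2i did not go with a match in every case. No matches overlapped, and GC content was 56.4% for Dusp6, 58.4% for Fos, 71.2% for the printed Etv5 window and 62.4% for Spry2.

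In 2i, 7 of the 10 genes had a mean of at most 2.09 FPKM in both lines: Etv4, Spry4, Dusp4, Dusp6, Egr1, Fos and Fosl1. So low a mean was common: in male 2i cells 74.9% of all listed genes were at or below the Etv4 mean of 2.09 FPKM. Ier3 was at 3.13 and 2.50 FPKM, while Etv5 and Spry2 were well expressed in every 2i cell. In serum, 8 of the 10 genes had both culture means above both 2i means, against 27.1% of the 15504 genes tested, Spry2 had both below and the Etv5 means overlapped. In 7 of the 10 (Etv4, Spry4, Dusp4, Dusp6, Egr1, Fosl1 and Ier3) log2(mean FPKM + 1) was higher in serum by at least 1 in each line, against 3.91% of genes. Genes were tested if they averaged 1 FPKM or more over the 8 cultures. Spry4, Dusp4, Egr1, Fos and Fosl1 were below 1 FPKM in both 2i cultures. They thus entered only through other cultures and could not fall by 1, so these counts are no independent evidence for them. A model over the 8 cultures (limma on genes averaging 1 FPKM or more, a log2 change of 1 or more, and p below 0.05 after Benjamini-Hochberg adjustment) called 0 of the 10 genes, and 3 of 15504 genes in all (0.0193%). At an unadjusted p under 0.05 it held 6 of the 10 genes, against 9.99% of all. The median log2 difference of the 10 genes was 1.84 and that of all genes 0. With 1 culture per line and state, these p-values measure only the spread between the lines' cultures. In simulated data with 200 of 15504 genes changed, the same fit recovered 0% of log2 changes of 1.5 between these states and 60% of changes of 3.

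**Figure D1:**
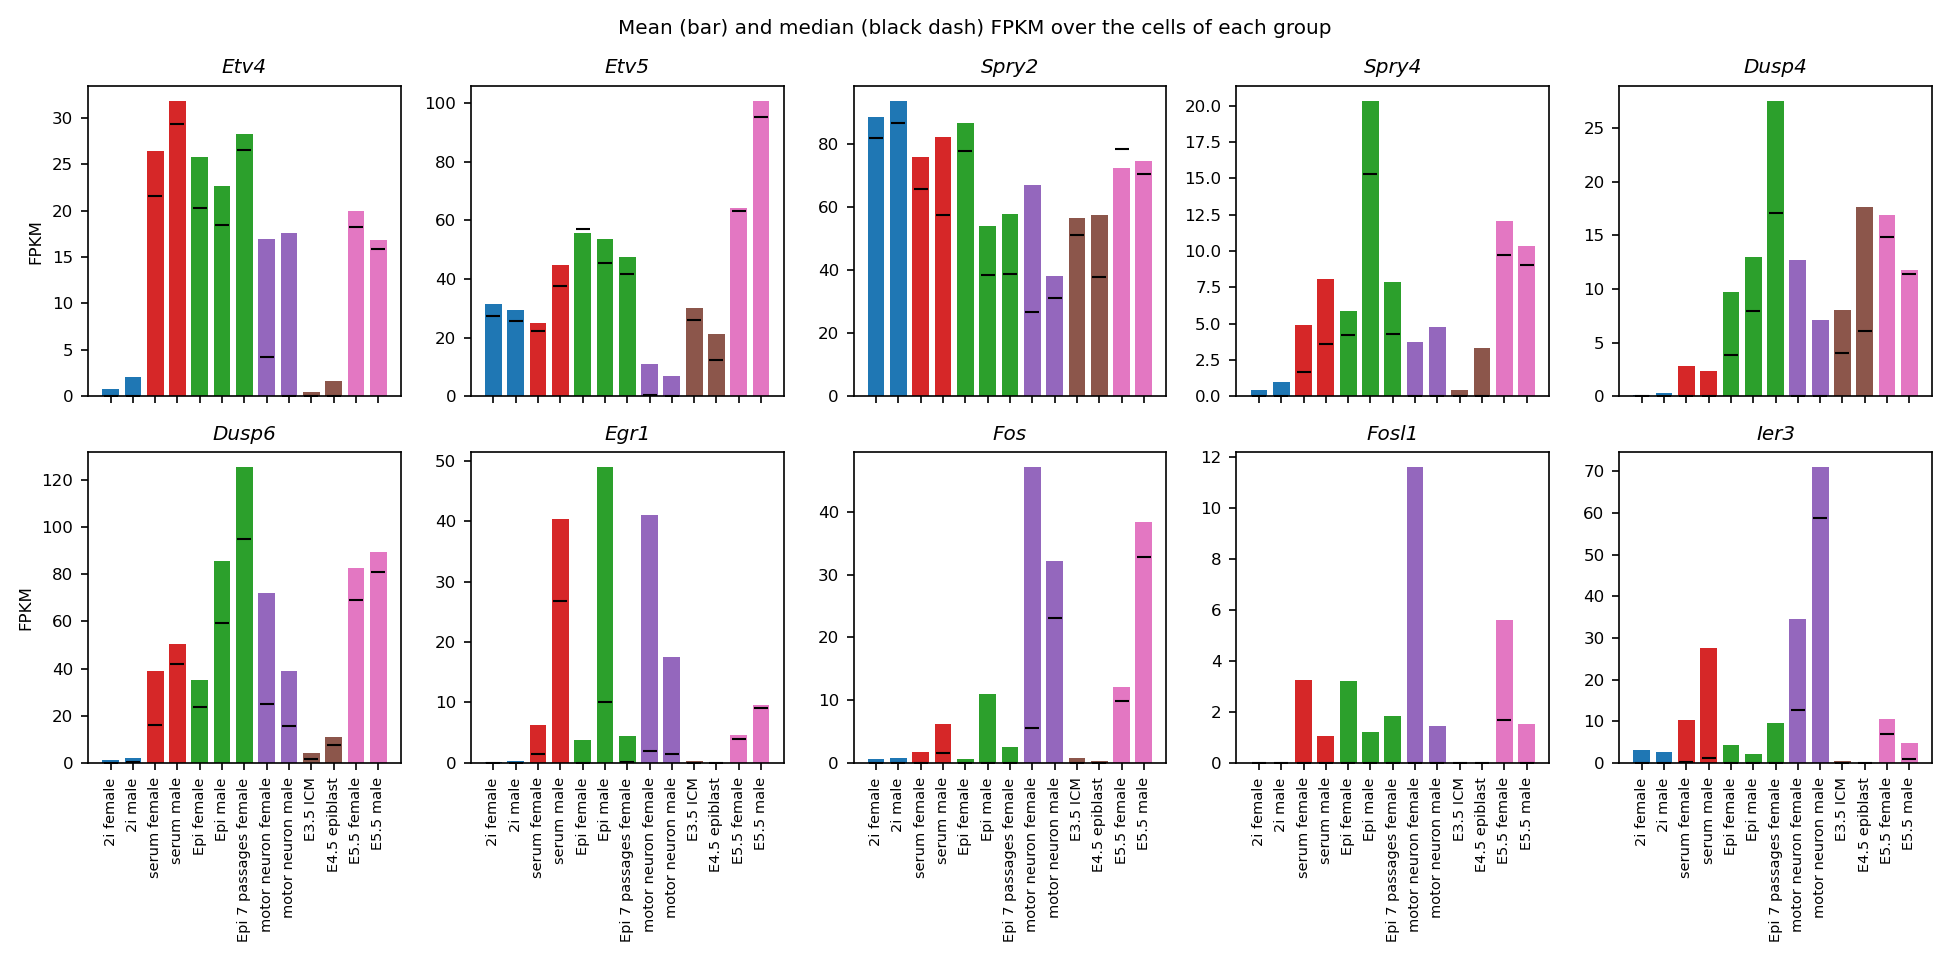
Mean FPKM of each of the 10 genes (y axis, 1 panel per gene, linear, starting at 0) in the 13 groups of cells (x axis), with the median cell as a black dash. Etv5 and Spry2 have tall bars in both 2i groups, where the other genes are at 3.13 FPKM or below.

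Etv4 (chr11:101769747-101785310), an ETS activator of the PEA3 family that FGF signalling induces, was near 0 in 2i. Its mean was 0.795 ± 1.76 FPKM (SD over 60 female cells; median 0, range 0 to 7.20) and 2.09 ± 4.51 FPKM (51 male cells; median 0, range 0 to 21.5). In serum it was 26.4 ± 21.4 FPKM (68 female cells; median 21.6, range 0 to 85.7) and 31.8 ± 24.3 FPKM (52 male cells; median 29.3, range 0 to 106.8). Both serum means lay far above both 2i means, and 54 of 68 female and 29 of 52 male serum cells exceeded the highest 2i cell of their line. The share of cells at 1 FPKM or more was 21.7% (95% Clopper-Pearson interval 12.1 to 34.2%) and 33.3% (20.8 to 47.9%) in 2i, and 88.2% (78.1 to 94.8%) and 96.2% (86.8 to 99.5%) in serum. The log2 difference was 3.93 in the female and 3.41 in the male line, 3.67 ± 0.32 (SE) in the fit, with a limma adjusted p of 0.0529. That call was at the edge of the threshold: it passed in 8 of 22 alternative settings, whose adjusted p ran from 0.00413 to 0.227. Epi cells held Etv4 at 25.7 and 22.7 FPKM and motor neuron cultures at 16.9 and 17.6 FPKM. The means of serum and Epi cells differed by less than their SDs.

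Etv5 (chr16:22381313-22439570), the close relative of Etv4, did not follow it. It had a mean of 31.5 ± 14.2 FPKM in female 2i cells (median 27.3, range 8.30 to 64.9) and 29.4 ± 15.97 FPKM in male ones (median 25.8, range 6.4 to 83.6), and every 2i cell was above 1 FPKM. In serum it was 25.1 ± 17.3 FPKM (median 22.4, range 1.14 to 73.9) and 44.9 ± 29.99 FPKM (median 37.5, range 5.56 to 134.1). The female serum mean was thus below and the male one above the 2i means, only 2 of 68 and 6 of 52 serum cells exceeded the highest 2i cell, and the log2 difference of 0.14 ± 0.35 (adjusted p = 1, limma) had opposite signs in the lines. Etv5 was at 55.8 and 53.6 FPKM in Epi cells. It was lowest in the motor neuron cultures, at 11.1 and 7.02 FPKM.

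Spry2 (chr14:105891947-105896819), an inhibitor of receptor tyrosine kinase signalling, was the most abundant of the 10 per transcript length in 2i. Its mean there was 88.5 ± 27.8 FPKM (range 32.1 to 154.8) and 93.7 ± 28.2 FPKM (range 42.3 to 152.3), with no 2i cell at 0. Serum cells had a mean of 75.9 ± 51.1 and 82.1 ± 85.8 FPKM but a wider range, from 0.153 to 193.5 FPKM and from 0.522 to 545.5 FPKM. The log2 difference of -0.20 ± 0.34 did not pass (adjusted p = 0.974, limma). Spry2 was at 86.7 and 54.1 FPKM in Epi cells and at 67.05 and 38.1 FPKM in motor neuron cultures, so it stayed above 38 FPKM in all 8 cultures.

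Spry4, its paralogue, was low where Spry2 was high. In 2i it averaged 0.449 ± 1.21 and 0.997 ± 2.22 FPKM, with 10.0% and 19.6% of cells at 1 FPKM or more, against 4.92 ± 8.78 and 8.10 ± 10.3 FPKM and 51.5% and 63.5% of cells in serum. The log2 difference was 2.03 and 2.19 in the lines (2.11 ± 0.57, adjusted p = 0.262, limma), and only 12 of 68 and 17 of 52 serum cells exceeded the highest 2i cell. The male Epi culture stood apart, at 20.3 ± 15.6 FPKM and 92.1% of cells, against 5.88 ± 6.71 FPKM in the female one. Motor neuron cultures were at 3.73 and 4.74 FPKM.

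**Figure D2:**
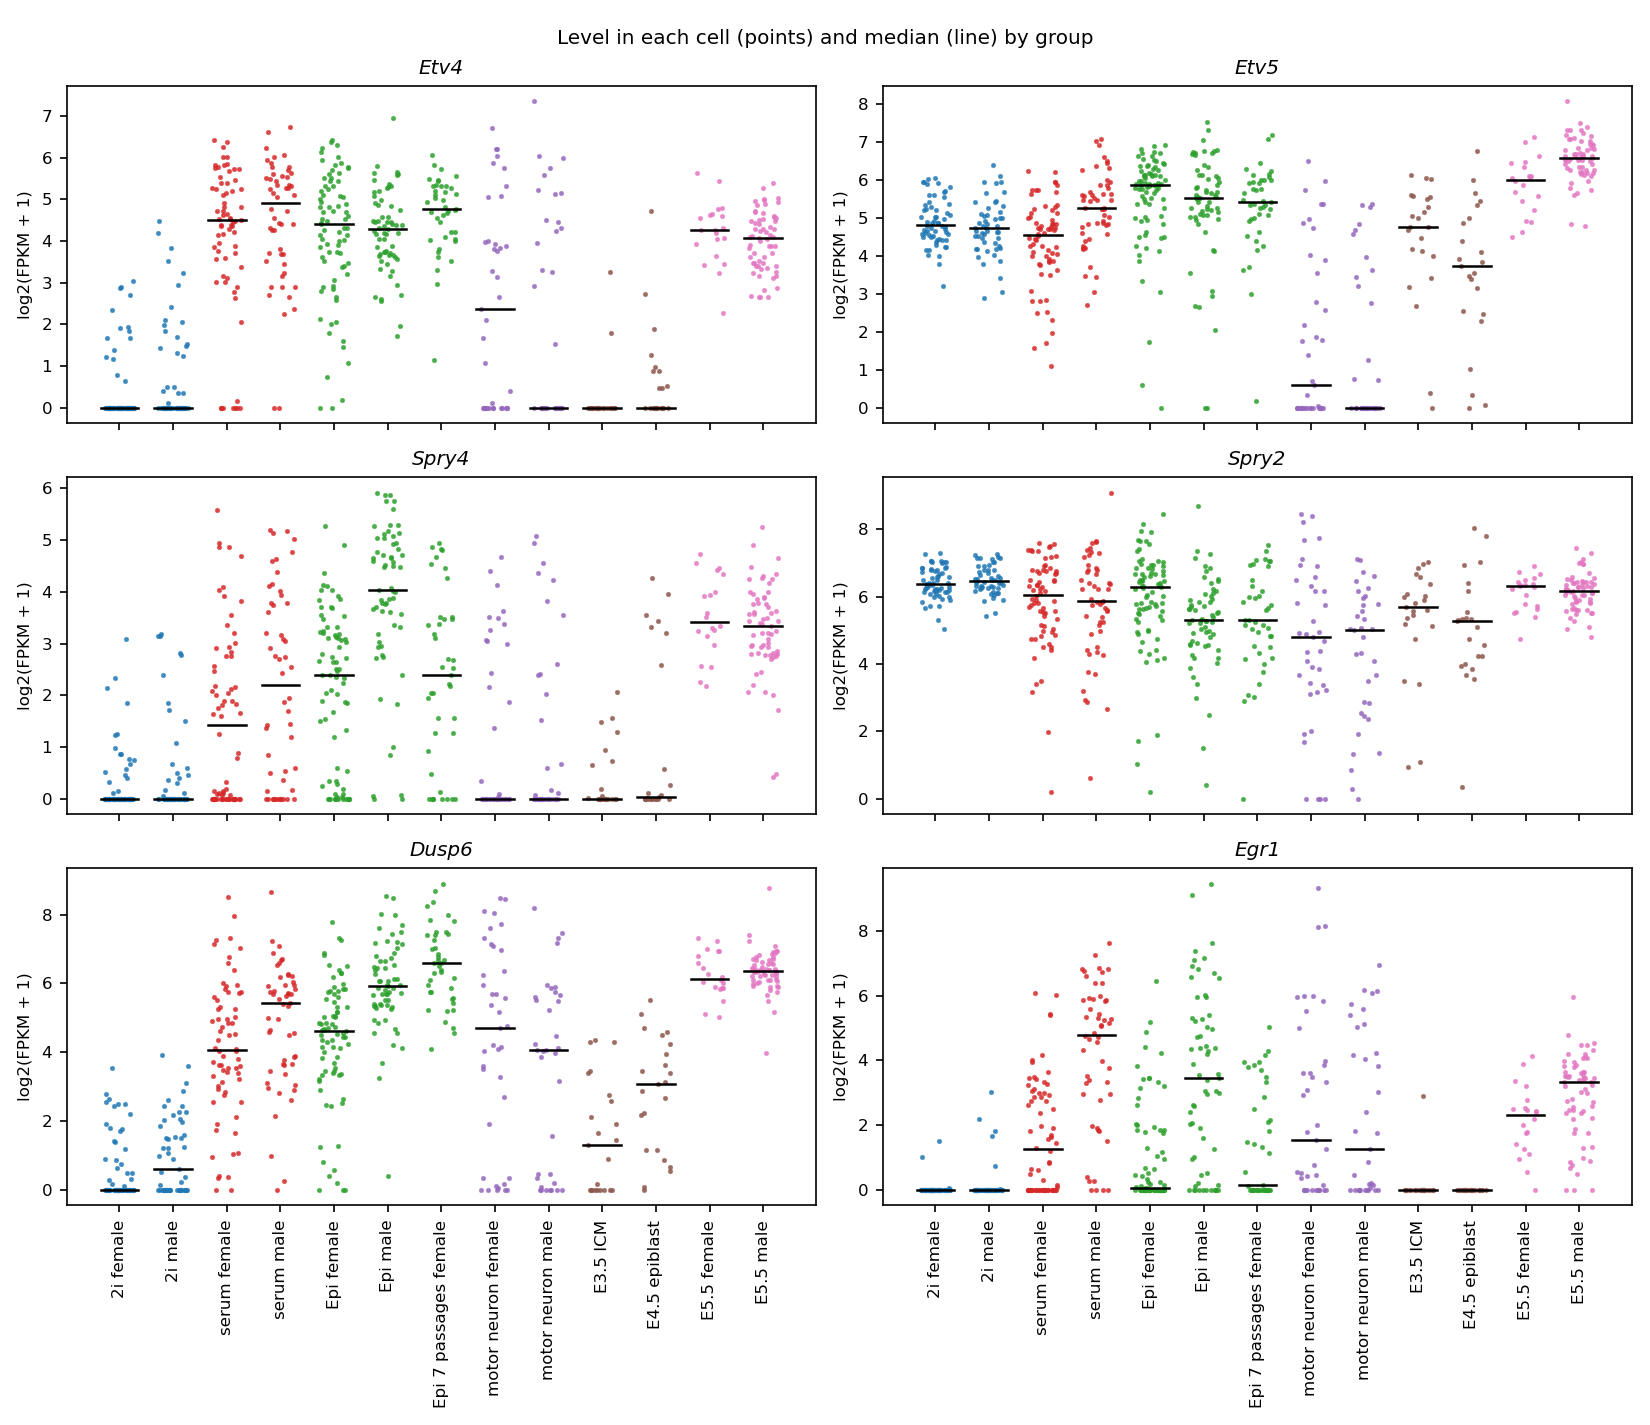
log2(FPKM + 1) of every cell (y axis; 1 point per cell, line at the median) for Etv4, Etv5, Spry4, Spry2, Dusp6 and Egr1 in the 13 groups (x axis). In 2i the medians of Etv4, Spry4 and Egr1 lie at 0, whereas all 2i cells stand well above 0 for Etv5 and Spry2.

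Dusp6 (chr10:99263231-99267489), a cytoplasmic phosphatase selective for ERK and a standard readout of ERK activity, had the largest fitted log2 difference between serum and 2i among the 10 genes, although in the male line that of Egr1 was larger (4.97 against 4.17). Its mean in 2i was 1.05 ± 2.04 FPKM (median 0, range 0 to 10.8) and 1.84 ± 2.89 FPKM (median 0.524, range 0 to 14.2). In serum it was 38.8 ± 60.9 FPKM (median 15.9, range 0 to 366.1) and 50.3 ± 61.7 FPKM (median 41.95, range 0 to 401.4). The groups of cells overlapped at the low end, but 42 of 68 female and 34 of 52 male serum cells were above the highest 2i cell of their line, and the share at 1 FPKM or more was 25% and 45.1% in 2i against 91.2% and 94.2% in serum. The log2 difference was 4.28 and 4.17 in the lines, 4.23 ± 0.50 in the fit, with an adjusted p of 0.0640 (limma), and it passed in 4 of 22 alternative settings (adjusted p 0.0192 to 0.397). Epi cells had 35.03 ± 39.3 and 85.7 ± 76.2 FPKM, and motor neuron cultures 72.1 ± 100.5 and 38.9 ± 62.8 FPKM.

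Dusp4 (chr8:34807610-34819894), a nuclear phosphatase of the same family, was detected at 1 FPKM or more in only 5.00% and 7.84% of 2i cells, with means of 0.136 ± 0.638 and 0.307 ± 1.06 FPKM. Serum cells had 2.84 ± 6.15 and 2.38 ± 5.01 FPKM, with 36.8% and 32.7% of cells at 1 FPKM or more. The difference was 1.56 ± 0.36 (adjusted p = 0.195, limma), 1.76 in the female and 1.37 in the male line. Dusp4 was higher again in Epi cells, at 9.76 ± 12.4 and 13.0 ± 16.01 FPKM, and in motor neuron cultures, at 12.7 ± 24.4 and 7.07 ± 14.0 FPKM.

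Egr1, a zinc finger factor induced within minutes of ERK activation, was at 0.0490 ± 0.273 and 0.316 ± 1.19 FPKM in 2i, with 2 of 60 and 4 of 51 cells at 1 FPKM or more. In serum it was at 6.22 ± 12.9 FPKM in the female culture and 40.3 ± 44.1 FPKM in the male one, and 32 of 68 and 37 of 52 cells exceeded the highest 2i cell. Its log2 difference of 3.88 had an SE of 1.25 and an adjusted p of 0.347 (limma), with 2.78 in the female and 4.97 in the male line. In Epi cells the lines were as far apart, at 3.78 ± 11.3 against 48.98 ± 114.9 FPKM, while in motor neuron cultures the female mean was the higher, at 41.04 ± 115.5 against 17.6 ± 28.6 FPKM.

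Fos (chr12:85473890-85477274), a subunit of the AP-1 dimer, had 2i means of 0.632 and 0.768 FPKM, serum means of 1.76 and 6.26 FPKM and Epi means of 0.592 and 11.0 FPKM. Its serum difference of 1.40 ± 0.95 did not pass (adjusted p = 0.758, limma). Fosl1 (chr19:5447698-5455938), which encodes the AP-1 subunit FRA1, was listed at 0 in all 60 female and 51 male 2i cells, which allows a share of up to 5.96% and 6.98% of cells (exact 95% interval), and stood at 3.23 and 1.04 FPKM in serum, 3.19 and 1.19 FPKM in Epi cells and 11.6 and 1.44 FPKM in motor neuron cultures. Most cells lacked it in every culture: at most 31.6% had 1 FPKM or more. Ier3 (chr17:35821713-35822911), a short early response gene linked to cell survival, had a serum mean of 10.2 ± 46.1 FPKM over a median of 0.103 in the female line and 27.5 ± 58 FPKM over a median of 1.14 in the male line. Its log2 difference from 2i was 1.44 and 3.03 (2.23 ± 0.57, adjusted p = 0.236, limma).

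Part of the spread in serum went with the numbers in the cells' titles, which fall into blocks of 96, though the labels do not say what a number stands for. In the male serum culture the 13 cells numbered 1 to 96 had an Egr1 mean of 2.27 FPKM and the 39 cells numbered 97 to 192 one of 53.01 FPKM. Between these blocks Ier3 was at 7.39 and 34.2 FPKM, Spry4 at 2.94 and 9.82 FPKM and Dusp6 at 24.3 and 59.02 FPKM, whereas Spry2 ran the other way, at 124.7 and 67.96 FPKM. In the female serum culture (30 and 38 cells) Egr1 was at 4.89 and 7.27 FPKM and Spry4 at 1.80 and 7.39 FPKM. Within each line both blocks of serum cells had means above both 2i blocks for Etv4 (19.6 FPKM or more against 2.18 or less) and Dusp6 (24.3 or more against 1.87 or less). The same held for Spry4, Dusp4, Egr1, Fos and Ier3. It did not hold in both lines for Etv5, Spry2 or Fosl1, which was at 0 FPKM in the lower male serum block, as in 2i. Serum cells also carried mesenchyme marker RNA, summing to 141.4 and 39.2 FPKM over 6 markers against 1.97 and 6.66 FPKM in 2i. The part of either in the differences was not tested.

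Epi cells are the state in which FGF2 is supplied, and against 2i 3 of the 10 genes rose, with 0.664% of all genes called in either direction and 0.290% called higher. Etv4 rose by 3.42 ± 0.32 on the log2 scale (limma adjusted p = 0.0294), Dusp4 by 3.33 ± 0.36 (adjusted p = 0.0311) and Dusp6 by 4.53 ± 0.50 (adjusted p = 0.0315). All 3 were higher in both lines. Among the others, Spry4 had a log2 difference of 2.83 (adjusted p = 0.0999, limma), Egr1 3.72 (adjusted p = 0.242), Fosl1 1.60 (0.423), Fos 1.36 (0.546), Etv5 0.82 (0.335), Ier3 0.10 (0.971) and Spry2 -0.41 (0.631). In 6 of the 10 genes the difference was at least 1 in each line, against 5.79% of all genes, and the median was 2.22 against 0.13. The limit given above for genes below 1 FPKM in 2i holds here too. The calls rest on the estimate of spread from all 8 cultures: 0 of the 10 genes passed when only the 4 cultures compared were used, or when either 2i culture, either serum culture or the male Epi culture was left out. Without the female or the male motor neuron culture only Dusp4 remained, and without the female Epi culture Spry4 joined them (adjusted p = 0.0243, limma), in a fit that called 712 of 15504 genes. The adjusted p over 21 alternative settings ran from 0.00280 to 0.143 for Etv4, from 0.00432 to 0.199 for Dusp4 and from 0.00160 to 0.199 for Dusp6, and the log2 difference stayed at or above 2.46 for all 3. The female Epi cells kept naive markers, as given above, and the part of this in the Epi values was not tested.

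Between Epi and serum, states that both leave MEK uninhibited, none of the 10 genes was called by limma (6 of 15504 genes, 0.0387%), and 2 of the 10 had an unadjusted p under 0.05, against 6.45% of genes. Dusp4 had a log2 difference of 1.77 ± 0.36 (unadjusted p = 0.0021, adjusted p = 0.571), with both Epi means above both serum means. Ier3 had one of -2.13 (unadjusted p = 0.0085, adjusted p = 0.727), as its Epi means were 4.33 and 2.11 FPKM. Differences for the other 8 ran from -0.25 for Etv4 to 0.72 for Spry4, beside a median of 0.12 over all genes. With the 7-passage female culture in place of the shorter female one, Dusp4 passed, at 2.47 (adjusted p = 0.0292, limma), but 848 of 15447 genes were called in that setting.

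**Figure D3:**
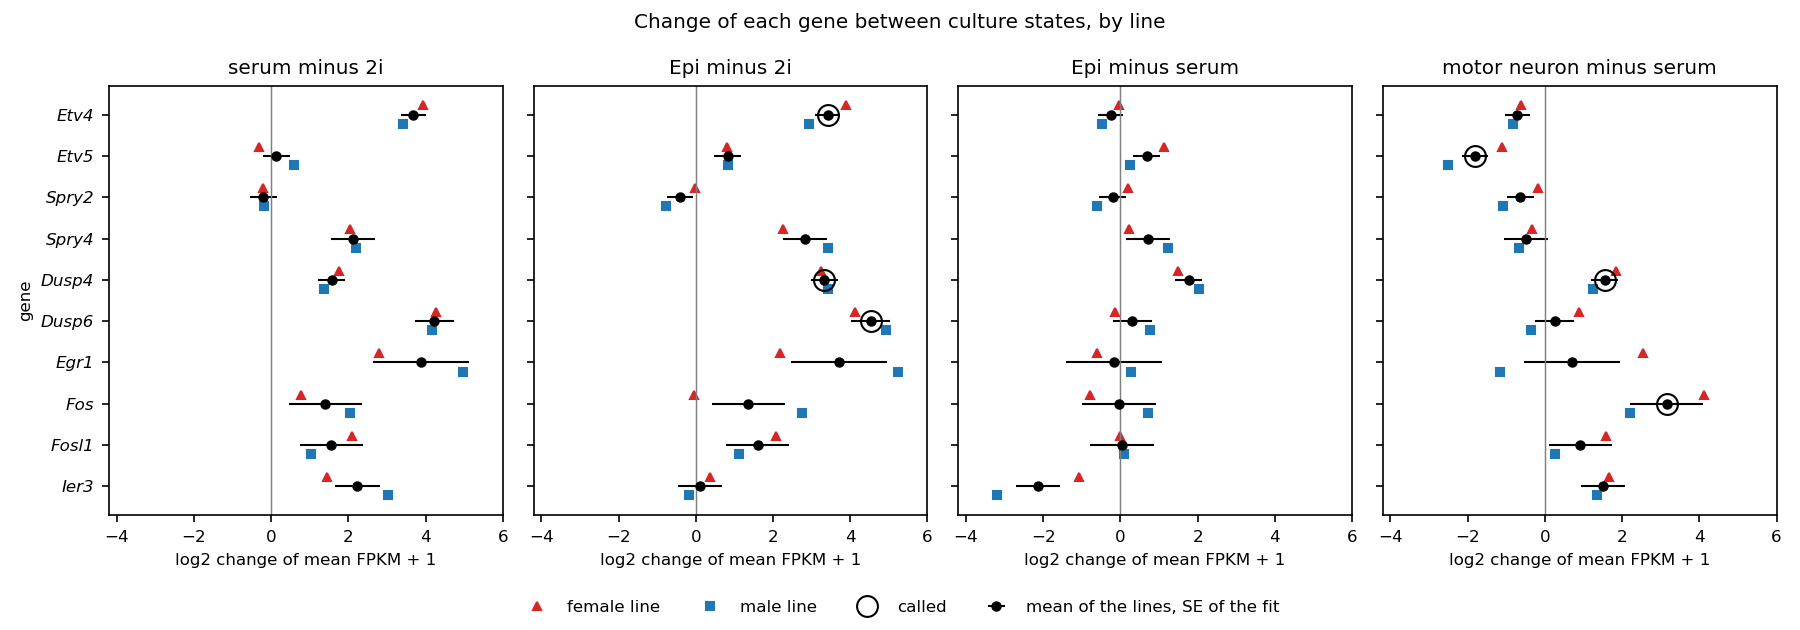
Difference in log2(mean FPKM + 1) for each gene (x axis; genes on the y axis) in 4 comparisons, with triangles for the female line, squares for the male line, dots with bars for the fit and its SE, and a ring around a gene that passed. Rings mark Etv4, Dusp4 and Dusp6 from 2i to Epi, and Etv5, Dusp4 and Fos from serum to motor neuron cultures, while the squares and triangles of Egr1 lie far apart in 3 of the panels.

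In the motor neuron cultures Dusp4 rose by 1.55 ± 0.36 (limma adjusted p = 0.0193) and Fos by 3.16 ± 0.95 (adjusted p = 0.0427) relative to serum, and Etv5 fell by 1.81 ± 0.35 (adjusted p = 0.0108). These counts stand against a background of 32.8% of genes called, 30.1% higher and 2.70% lower, and a median difference of 0.71 over all genes and 0.48 over the 10. Fos was at 47.1 ± 75.4 and 32.2 ± 39.05 FPKM in these cultures, with 53.8% and 62.9% of cells at 1 FPKM or more. Ier3 stood at 34.4 ± 49.99 and 70.99 ± 67.2 FPKM (1.499, adjusted p = 0.0839, limma). The other values were -0.72 for Etv4 (adjusted p = 0.129), -0.63 for Spry2 (0.192), -0.50 for Spry4 (0.521), 0.26 for Dusp6 (0.715), 0.69 for Egr1 (0.688) and 0.92 for Fosl1 (0.408).

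Motor neuron cells had larger FPKM sums, as given above, and the calls in this comparison moved with the scaling. With every cell rescaled to the same sum, Dusp4 (0.88, adjusted p = 0.109, limma) and Fos (2.58, adjusted p = 0.105) no longer passed, whereas Etv4 (-1.40, adjusted p = 0.0250) and Spry2 (-1.31, adjusted p = 0.0369) joined Etv5 as lower, and the all-gene calls went from 4669 higher and 419 lower to 2166 and 971. With upper-quartile scaling they were 2054 and 1597, and the same 3 of the 10 genes were lower and none higher. Fos also failed without the female or male 2i (adjusted p = 0.0883 and 0.0881), female or male serum (0.210 and 0.0895) or female or male motor neuron culture (0.151 and 0.126). Dusp4 failed without the female or male serum culture (0.0877 and 0.106), and Etv5 without the male serum culture (-1.40, 0.0627). These cultures were mixed: neuron markers summed to 1970 and 4940 FPKM, endoderm markers to 307 and 1176 FPKM and mesenchyme markers to 2044 and 375 FPKM. Most of the mesenchyme sums came from Acta2 (1260 and 294 FPKM) and Tagln (596 and 76.7 FPKM). Col1a1, Col1a2, Col3a1 and Dcn were at 68.4, 6.23, 15.2 and 97.9 FPKM in the female culture. In the male culture they were at only 1.02, 0.111, 0.927 and 1.98 FPKM. Of 6 dissociation and heat-shock genes tested, 2 rose between serum and these cultures, beside the 30.1% of all genes called higher: Dnajb1 by 1.35 and Nfkbia by 1.247 (adjusted p = 0.00728 and 0.0243, limma). The others had 1.62 for Socs3, -0.17 for Gadd45b, -1.01 for Hsp90aa1 and -1.59 for Hspb1 (adjusted p = 0.201, 0.802, 0.0753 and 0.470), and the part of these genes in the Fos value was not tested.

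Across the 4 states the lines did not differ in any of the 10 genes by the adjusted test (limma, 0 of 15504 genes called, 0.00%), and 2 of the 10 had an unadjusted p under 0.05, against 8.96% of genes. The female minus male difference was -0.75 ± 0.29 for Spry4 (unadjusted p = 0.0444, adjusted p = 0.532) and 1.09 ± 0.42 for Fosl1 ( unadjusted p = 0.0449, adjusted p = 0.532). It was -1.26 for Egr1 (adjusted p = 0.582) and -0.97 for Fos (0.577). The remaining 6 lay between -0.34 and 0.32.

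The rest of the pathway is given from lists of its ligands, receptors, kinases and other targets. Between 2i and serum, of 8 FGF ligands and receptors tested, 20 genes of the RAS to ERK cascade, 15 other feedback inhibitors and 21 other ERK-responsive or immediate-early genes, none was called (limma), and 2, 1, 4 and 6 respectively had an unadjusted p under 0.05, against 9.99% of all genes. The largest difference of each list was that of the immediate-early gene Junb (2.21, adjusted p = 0.202), the ERK phosphatase gene Dusp9 (2.32, adjusted p = 0.0778), the receptor gene Fgfr2 (1.97, adjusted p = 0.242) and the kinase gene Braf (1.15, adjusted p = 0.277). Median differences of the 4 lists were 0.63, 0.10, 0.30 and 0.42, against 1.84 for the 10 genes. Between 2i and Epi cells 1 gene of these lists was called: the ligand gene Fgf15, from 0.131 and 0.101 FPKM to 19.1 and 12.2 FPKM (3.87 ± 0.39, adjusted p = 0.0311, limma). Between serum and Epi cells, and between the lines, 0 genes of the 4 lists passed (limma), with 8 and 7 at an unadjusted p under 0.05, against 6.45% and 8.96% of all genes. The ligand genes Fgf8 (5.43, adjusted p = 0.727) and Fgf5 (4.15, adjusted p = 0.722), the latter a primed epiblast marker as well, had the widest differences from serum to Epi. Between serum and motor neuron cultures 5 of the 20 cascade genes were called higher, among them Mapk3, which encodes ERK1 (2.57), and the adaptor gene Grb2 (2.31). In the same comparison 6 of 15 other feedback inhibitors were called higher, led by Dusp8 (3.76) and Spred3 (3.29), and 7 of 21 early genes, led by Phlda1 (4.72) and Atf3 (3.81). The receptor genes Fgfr3 (2.54) and Fgfr4 (2.05) rose there while Fgf15 fell by 1.30, all beside the 30.1% of genes called higher.

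In the embryo the 10 genes split by stage, as described here without a test. Etv4 was at 0.482 ± 1.85 FPKM at E3.5 and 1.70 ± 5.34 FPKM at E4.5, and at 19.97 ± 10.8 and 16.8 ± 8.48 FPKM in female and male E5.5 cells, where every cell had 3.83 FPKM or more. Spry4 went through 0.465, 3.32 and then 12.0 and 10.4 FPKM, and Dusp6 through 4.33, 10.9 and then 82.8 and 89.6 FPKM. These 3 genes thus were lower at both blastocyst stages than at E5.5. Stage cannot be told apart here from strain or from the separate normalization of the tables. The E3.5 and E4.5 cells also carried trophoblast marker RNA, as given above. Egr1 was listed at 0 in all 23 E4.5 cells, which allows a share of up to 14.8% (exact 95% interval), and was at 0.278 FPKM at E3.5 and 4.68 and 9.497 FPKM at E5.5. Fos followed with 0.794, 0.214 and then 12.2 and 38.4 FPKM, Fosl1 was listed at 0 in all 46 blastocyst cells, and Ier3 was at 0.356 and 0.0118 FPKM before E5.5.

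Etv5, Spry2 and Dusp4 were already present in the blastocyst. Etv5 was at 30.04 ± 20.4 FPKM at E3.5, 21.3 ± 25.5 FPKM at E4.5, and 64.2 ± 32.2 and 100.8 ± 39.4 FPKM at E5.5, its highest level in the series. Spry2 stayed between 56.4 and 74.5 FPKM at all stages. Dusp4, near 0 in 2i cells, was at 8.02 ± 11.8 FPKM at E3.5, 17.6 ± 22.3 FPKM at E4.5 and 16.9 ± 11.1 and 11.8 ± 7.42 FPKM at E5.5. Marker lists were taken here as the mean of log2(FPKM + 1) over their genes. Within the 23 E4.5 cells Etv5 went with the naive markers (Spearman rho 0.94) and against the trophoblast markers (-0.74), and Dusp6 ran the other way (-0.65 and 0.64). Dusp4 went with the endoderm markers in both blastocyst groups (0.60 at E3.5 and 0.85 at E4.5). At E5.5 Etv5 went with the DNA methyltransferase gene Dnmt3b in both sexes (0.67 over 20 and 0.61 over 63 cells). These values describe cells that share library preparation and that the labels do not assign to embryos. The female 7-passage Epi cells had Dusp6 at 125.5 ± 105.7 FPKM, with every cell at 16.1 FPKM or more, Dusp4 at 27.5 ± 36.7 and Etv4 at 28.3 ± 14.3 FPKM. Etv5 was at 47.6, Spry2 at 57.9, Spry4 at 7.87, Egr1 at 4.42, Fos at 2.50, Fosl1 at 1.82 and Ier3 at 9.60 FPKM there.

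Ordered by mean over the 13 groups, the genes peaked in different places. Etv4 was highest in male serum cells, Etv5 in male E5.5 cells, Spry2 in male 2i cells, Spry4 and Egr1 in male Epi cells, Dusp4 and Dusp6 in 7-passage Epi cells, Fos and Fosl1 in the female and Ier3 in the male motor neuron culture. For 9 genes none of the 12 pairs of neighbours in that order differed by more than the larger SD over cells. For Etv4 1 pair did: male E5.5 cells over male 2i cells. Levels in different tables were set by separate normalizations, so their order across tables is approximate.

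The number of the 10 genes at 1 FPKM or more was also counted in each cell. Its median was 3 in both 2i cultures, 6 and 7 in serum, 6 and 7 in Epi cells, 7 in 7-passage Epi cells, 6 and 5 in motor neuron cultures, 4 at both blastocyst stages and 9 and 8 at E5.5. The counts overlapped between cultures: 2i cells reached 6 and 7, and serum cells started at 3. No 2i cell had all 10, whereas 6 of 20 female and 9 of 63 male E5.5 cells did. Median gene numbers per cell were similar in 2i (10400 and 10393) and lower in serum (9443.5 and 9645).

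**Figure D4:**
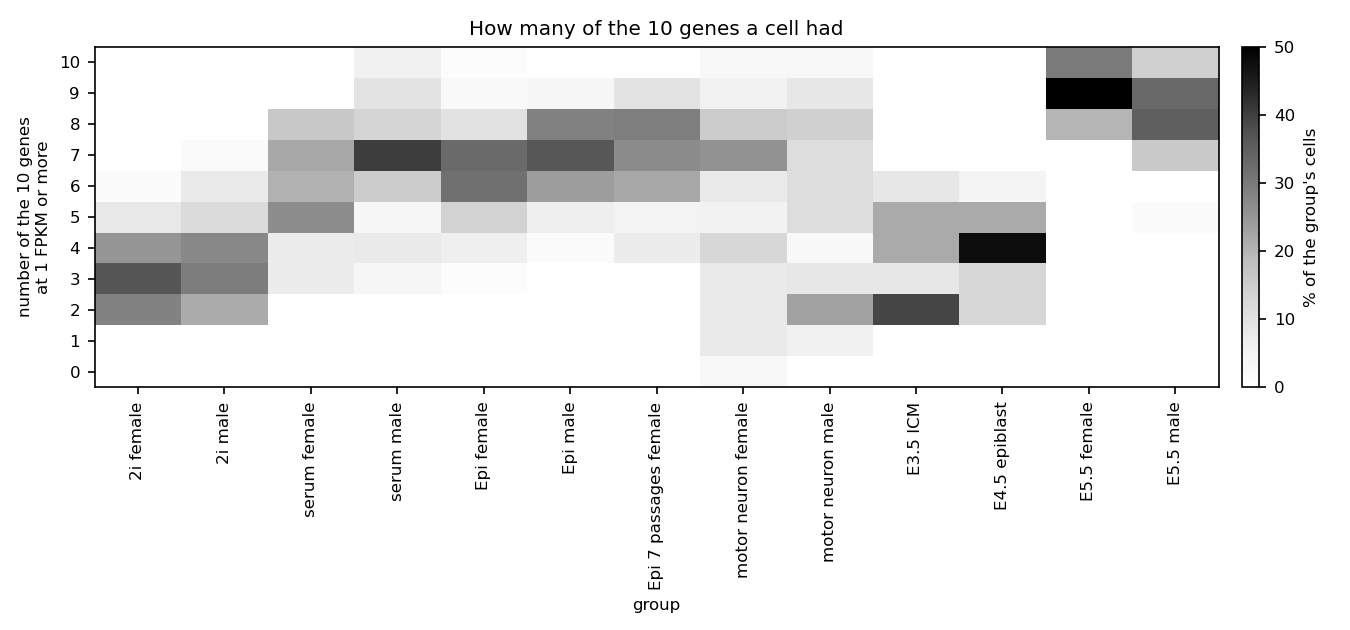
Share of each group's cells (grey scale, %) that had a given number of the 10 genes at 1 FPKM or more (y axis) in the 13 groups (x axis). The 2i cells lie mostly at 2 to 4 genes, serum and Epi cells mostly at 5 to 8, and E5.5 cells at 7 to 10, apart from a faint shade at 5 in males.

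Cell-to-cell spread is given beside that of genes of like level. In 2i, Etv5 had a coefficient of variation (CV) of 0.450 and 0.543 and Spry2 of 0.314 and 0.300, close to the medians of 0.472, 0.527, 0.345 and 0.353 for genes of like mean, from 20% below to 25% above. In serum, Etv5 was at 0.689 and 0.667, against 0.727 and 0.591 for genes of like mean, Spry2 at 0.673 and 1.05, against 0.530 and 0.468, Dusp6 at 1.57 and 1.23 against 0.639 and 0.571, and Ier3 at 4.51 and 2.11 against 0.979 and 0.674. In the female serum culture 80.9% of all Ier3 signal came from 7 of 68 cells. Male Epi cells had an Egr1 CV of 2.35 against 0.595, with a highest cell at 699.5 FPKM over a median of 10.0. At E5.5 Spry2 was again near its reference, with 0.339 and 0.390 against 0.372 and 0.362.

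Pairs among the 10 genes were compared across the cells of each group, 45 pairs in most groups, 36 in both 2i cultures and at E3.5 and 28 at E4.5, where a gene listed at 0 in every cell gave no value. Spry4 and Dusp6 had the highest median Spearman rho, 0.37, positive in 12 of 13 groups and from -0.36 at E4.5 to 0.57 in the male motor neuron culture. It was 0.25 and 0.50 in 2i, 0.043 and 0.52 in serum (-0.046 in the female culture within number blocks), and 0.37 and 0.44 at E5.5. Egr1 and Fos came next, with a median of 0.27 over 12 groups and values of 0.61 in male Epi cells, 0.76 in the male motor neuron culture and 0.48 in male serum cells, where it was 0.29 within number blocks. In the male motor neuron culture the median over all pairs was 0.35, against 0.018 for pairs of expressed genes at large, and it was 0.23 against 0.028 in the female one. Those reference genes averaged 1 FPKM or more and were not matched to the 10 genes in level. Genes at 1 FPKM or more per cell ran from 6744 to 12914 in the male and from 4332 to 11893 in the female culture. The part of this in rho was not tested. The mean log2(FPKM + 1) of the neuron markers went with several of the genes in these cultures. These were Etv4 (0.56 female, 0.76 male), Dusp6 (0.51, 0.59) and Egr1 (0.56, 0.54), while Etv5 had 0.23 and 0.20. In female 2i cells the median over 36 pairs was -0.0079. All these values are over 20 to 79 cells of 1 culture or stage, which share medium and library preparation, and many are over values at 0.

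**Figure D5:**
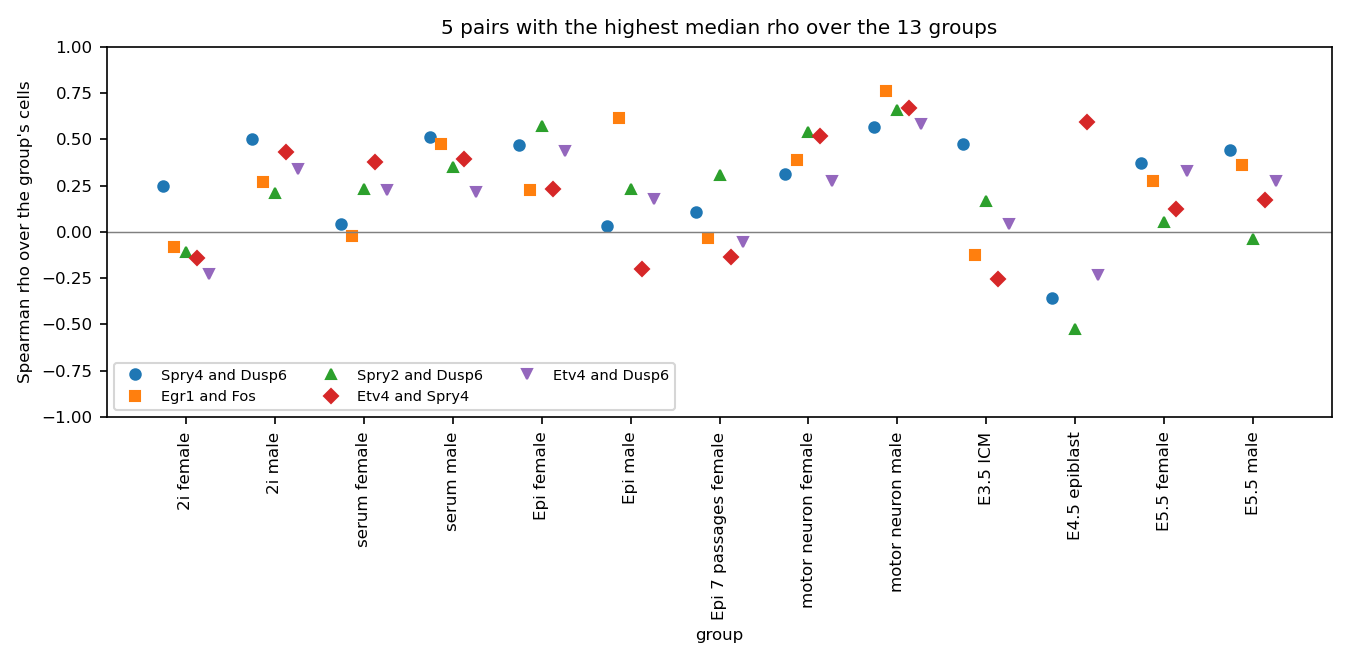
Spearman rho across cells (y axis) for the 5 gene pairs with the highest median over groups, in each of the 13 groups (x axis). Spry4 with Dusp6 lies above 0 in every group but E4.5 epiblast, and Egr1 with Fos is highest in the male motor neuron culture.

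In the 4 ES cultures, the gene whose level across cells was most like that of each ERK gene was found by the mean rho over cultures. For Spry4 it was the homeobox gene Gbx2 (0.36 over 4 cultures) and for Dusp6 the connexin gene Gja1 (0.35). For Etv5 it was Ppat (0.38), for Spry2 Rpgrip1 (0.36), for Etv4 Slirp (0.32), for Dusp4 Tubb6 (0.24) and for Fosl1, over the 2 serum cultures only, Btg2 (0.41). Egr1, Ier3 and Fos had D10Jhu81e (0.30), Tmem205 (0.25) and Gm25745 (0.25). Each is the top of 6964 or 6965 genes compared. In serum cells Dusp6 and the naive factor gene Nanog had a rho of -0.46 in the female and -0.36 in the male line (-0.41 and -0.32 within number blocks). This pair is a selection from many computed with named genes and marker lists.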

How the data were processed

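The labels' protocols name SMART-seq2 and Tn5 for library preparation. The authors deposited FPKM values in 4 tables; the submitters' processing notes list STAR 2.4.1, Cufflinks, Cuffnorm 2.2.1 and the build mm10, and the scaling option, annotation, filters and strand setting are not given in the sources used here. The depth per cell is unknown, so the number of genes at 1 FPKM stands in for it. Of 43628 identifiers 42462 matched a symbol. Every column mapped to a labelled cell (0 left over), and 356 values written with a damaged exponent, all under 1e-04 FPKM, were read as numbers.

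Per culture, mean FPKM + 1 was log2-transformed and tested with limma 3.58.1 in R 4.3.3 (trended eBayes, 8 cultures, genes averaging 1 FPKM or more). The fit was also tested on simulated data in which 200 of 15504 genes were changed. It recovered 0% of log2 changes of 1.5 in each of the 4 comparisons between states, and 56.5% to 60% of changes of 3. In the real data 32.8% of genes were called from serum to motor neuron cultures, which loosens the adjustment. The simulated shares therefore do not describe that comparison. The 4 comparisons share cultures. Genes beyond the 10 were named by a rule: per list and comparison, up to 5 that passed, or else the 2 largest differences that had the same sign in both lines; and the genes of highest mean rho with a member over the 4 ES cultures, among genes at 5 FPKM or more. Values of rho with marker lists, Nanog and Dnmt3b are a selection from many computed and fall outside this rule. Members and lists were chosen with earlier results of these data known. Intervals cover counting error over cells only. Alternatives covered scaling, pseudocount, filter, averaging, cultures left out, and number blocks. Other steps used Python 3.11.15, pandas 2.3.3 and scipy 1.17.1. Promoter sequences came from RefSeq (GRCm38.p6).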

Additional observations from a re-analysis of the deposited data

Results flagged for a closer look

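In 10 cases the log2 difference of a gene had opposite signs in the female and the male line. Each rests on 1 culture per line and state, and the difference between the lines was not tested. From 2i to serum Etv5 had -0.32 in the female and 0.59 in the male line. From serum to Epi cells 5 genes were split: Spry2 with 0.19 and -0.59, Dusp6 with -0.14 and 0.76, Egr1 with -0.60 and 0.27, Fos with -0.80 and 0.72, and Fosl1 with -0.013 and 0.10, again female first. From 2i to Epi cells Fos had -0.036 and 2.76 and Ier3 0.37 and -0.17. From serum to motor neuron cultures Dusp6 had 0.88 and -0.36, and Egr1 2.54 and -1.15, the widest of the 10 splits.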

How the results depend on the processing

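Counts of the 10 genes called depended on the cultures and scaling in the fit. From 2i to serum 1 gene passed without a low-value filter, with a filter at 5 FPKM, with cells rescaled or with upper-quartile scaling, and 2 passed with log2 values averaged over cells, only the cultures compared, the 7-passage Epi culture or the higher number block. From serum to Epi 1 passed with the 7-passage culture, from 2i to Epi 0 with only the cultures compared, and from serum to motor neuron 5 with log2 values averaged. Leaving out 1 culture at a time gave 0 to 0 genes from 2i to serum, 0 to 0 from serum to Epi, 0 to 4 from 2i to Epi, 0 to 3 from serum to motor neuron and 0 to 0 between lines. In such fits the lone culture of a state is assumed to vary like the others. The counts over all genes ran from 0 to 409 from 2i to serum, 0 to 848 from serum to Epi, 0 to 1693 from 2i to Epi and 1647 to 5688 from serum to motor neuron. With the line as a replicate block the genes called among the 10 were 0, 0, 3 and 3 in these comparisons and 0, 2, 85 and 5400 among all. The lines' deviations correlated at 0.061 to 0.16 (Pearson r) between states.

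Of 1060 log2 differences of single genes, 946 kept direction and call, 23 newly passed, 42 no longer passed and 49 changed sign, all of the last for differences that did not pass. From 2i to serum, Etv5 was -0.042 with log2 values averaged, -0.14 in the higher block and -0.27 to 0.55 with 1 culture left out, and Spry2 was 0.14 in the lower block. From serum to Epi, Fos was 0.054 rescaled, 0.53 with the 7-passage culture, 0.059 in the lower and 0.37 in the higher block, Fosl1 -0.071 with upper-quartile scaling, -0.24 with the 7-passage culture and -0.015 in the higher block, and Etv4 0.0041 and Egr1 1.46 in the lower block. With 1 culture left out, this comparison gave -1.85 to 1.53 for Egr1 (1.10 without male serum), -1.49 to 1.42 for Fos (0.66 without male serum), -0.48 to 0.57 for Fosl1, -0.54 to 0.13 for Spry2, -0.094 to 1.54 for Spry4 and -0.33 to 0.94 for Dusp6. From 2i to Epi, Ier3 was -0.27 with log2 values averaged and -0.29 to 0.49 with 1 culture left out (-0.019 without male 2i), and Fos -0.093 to 2.82. From serum to motor neuron, Dusp6 was -0.63 with log2 values averaged, -0.42 rescaled, -0.59 with upper-quartile scaling and -0.18 to 0.69 with 1 culture left out. Egr1 was -0.52 with log2 values averaged, -0.11 with upper-quartile scaling and -0.56 to 1.95 with 1 culture left out, Spry4 0.65 in the lower block, and Fosl1 -0.27 to 2.10. Between lines, Dusp4 was -0.029 with a pseudocount of 0.1 FPKM and -0.13 to 0.25 with 1 culture left out, Etv5 0.045 rescaled, 0.094 with upper-quartile scaling, 0.034 in the lower block and -0.22 to 0.25, Ier3 0.11 in the lower block, and Dusp6 0.14 with the 7-passage culture, 0.011 with only the cultures compared or without both Epi cultures (an alternative added after seeing the data), and -0.70 to 0.011. The causes were not tested. At other thresholds 62 of 260 shares of cells moved, and 26 values of rho moved within number blocks. Depth per cell is unknown, so a value of 0 may be RNA that was not captured.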
